A study of Mus musculus with 2 samples.

Results

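The genes described here are 32 regulators of RNA processing known from neurons, taken as a list of symbols: the Rbfox, Nova, Ptbp, Elavl, Celf, Mbnl, Srrm, Khdrbs, Msi and Fmr1 families, and Syncrip. All 32 were found by symbol among the 55536 genes of the annotation (GENCODE release M21, mouse build mm10), of which 22028 are protein coding. Polyadenylated RNA was sequenced from whole forebrains of newborn B6NCrl mice (postnatal, age 0 days). Each library came from a single forebrain, that of pup 3 (replicate 2) or that of pup 1 (replicate 1), and was made from 10 ng of RNA by oligo-dT priming and Nextera tagmentation with ERCC spike-ins. No treatment or genetic change is given, sex was not recorded, and the donor identifier is shared by the pups, so whether they stand for unrelated animals is not known. The 2 libraries form 1 group, so no p-value is given: differences between pups are sizes without a test, and the SD is taken over these 2 pups. The libraries held 41230878 estimated counts in pup 3 and 40964891 in pup 1.

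RNA-binding regulators of this kind sit on introns and exon edges of pre-mRNA or on the 3′ ends of mature mRNA, and decide which exons are joined, how long a message lasts and where it is translated. In neurons they drive a programme of exon choices that differs from that of other tissues. A well-known case is the switch in which PTBP1, made in progenitors and non-neural cells, gives way to its neuronal paralogue PTBP2. Many of these genes also splice their own messages, often through short exons whose sequence is related between paralogues.

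The marker genes matched a forebrain. All 8 forebrain genes were detected, with Neurod6, a factor of cortical excitatory neurons, at 316 TPM in pup 3 against 197 TPM in pup 1, and all 5 hindbrain and spinal cord Hox genes were listed at 0. TPM is a level scaled to transcript length and library size, and a gene was called detected at 1 TPM or more in both pups. Summed over their marker lists, the 6 neuron genes (led by Tubb3) reached 3289 TPM in pup 3 and 3880 TPM in pup 1. The 6 progenitor genes (led by Fabp7) summed to 2631 TPM in pup 3 against 2528 TPM in pup 1, and the 4 astrocyte genes (led by Slc1a3) to 204 TPM in pup 3 against 289 TPM in pup 1. The 4 haemoglobin genes of red blood cells, led by Hba-a2, summed to 3076 TPM in pup 3 against 2171 TPM in pup 1. Sums were also taken for the oligodendrocyte lineage (148 TPM in pup 3, 175 TPM in pup 1, led by Olig1), microglia (122 TPM in pup 3, 116 TPM in pup 1, led by C1qb), vessels (232 TPM in pup 3, 221 TPM in pup 1, led by Cldn5) and skeletal muscle (14.8 TPM in pup 3, 18.3 TPM in pup 1, nearly all of it Acta1). These are bulk tissues, so fewer cells of a type and less RNA per cell cannot be told apart in any level below.

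The regulators were widely expressed. Of the 32, 31 (96.9%) were detected, against 13113 of all 22028 protein-coding genes (59.5%). Their median level was 42.0 ± 2.40 TPM (SD of the pup medians, n = 2), with 39.4 TPM in pup 3 and 42.8 TPM in pup 1. Over the 13474 protein-coding genes with a mean of 1 TPM or more the median was 16.3 TPM, below that of the regulators. At 10 TPM or more in both pups stood 27 of them. The 6 at 100 TPM or more in both pups were Celf4, Celf3, Rbfox1, Ptbp2, Elavl4 and Celf2, and Rbfox2 reached that level in pup 1 only. Nova2, Ptbp3 and Mbnl3 stayed under 10 TPM in both.

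In the order of mean levels, 7 of the 31 pairs of neighbours did not overlap between pups and 24 did. The clear steps were Celf4 over Celf3, Celf3 over Rbfox1, Rbfox1 over Ptbp2, Khdrbs1 over Syncrip, Syncrip over Rbfox3, Msi1 over Srrm3 and Nova2 over Mbnl3. Most of the ranking in the middle of the list is therefore not resolved by these pups. Some levels also rest on short transcript entries, fragments of under 1000 bases in the annotation. On these a read adds more TPM than on a long entry. The reads need not be few: short entries held most of the estimated counts of Celf3 in both pups. With entries of 1000 bases or more alone, the median regulator stood at 32.7 TPM, Celf3 moved from rank 2 to rank 18, Elavl4 from rank 5 to rank 14 and Srrm3 from rank 19 to rank 31. Celf4 kept rank 1. Reads of the short entries were left out of these values and not moved to longer entries.

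**Figure D1:**
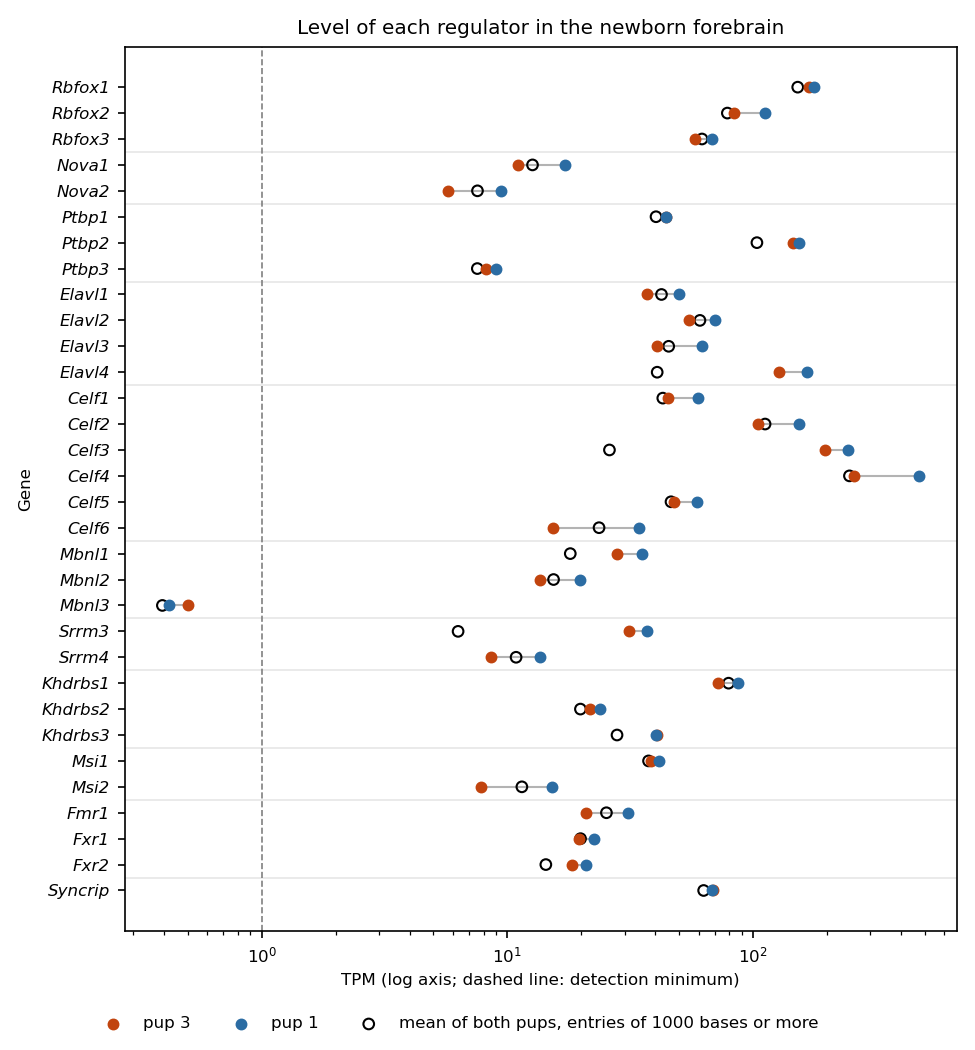
TPM of each of the 32 regulators in pup 3 and pup 1 on a log axis, grouped by family, with open circles for the mean of both pups counted on transcript entries of 1000 bases or more. All but Mbnl3 lie right of the detection minimum of 1 TPM, and the open circles of Celf3, Elavl4 and Srrm3 fall far left of their filled ones.

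The Rbfox proteins bind UGCAUG in introns and enhance or repress the neighbouring exon by position, and RBFOX3 is the antigen known as NeuN, a label of mature neurons. Rbfox1 (chr16:5885355-7411526, plus strand) stood at 169 TPM in pup 3 against 177 TPM in pup 1. Rbfox2, which many tissues express, had 83.5 TPM in pup 3 and 111 TPM in pup 1. Rbfox3 had 57.8 TPM in pup 3 and 68.0 TPM in pup 1. The pups did not overlap between these 3 genes, and Rbfox1 was 0.84 ± 0.25 above Rbfox2 on the log2 scale (n = 2). Rbfox3 was 0.62 ± 0.13 below Rbfox2 on that scale in the main annotation, but the older release M4 put it 0.17 above, so their order depends on the annotation.

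Rbfox genes carry a pair of alternative exons near their 3′ end, 40 and 43 bases long, known as the brain and the muscle exon, of which a transcript usually takes one or the other. They are printed here because the choice between them can be read from the tables and because the paralogues' copies can be compared base by base. Sequences are from the GENCODE M21 transcripts (mm10), 5′ to 3′ in the direction of the gene, and capitals mark bases at which the copies printed together differ. The 40-base exons lie at chr16:7363865-7363904 (plus strand, Rbfox1), chr15:77094451-77094490 (minus strand, Rbfox2) and chr11:118496351-118496390 (minus strand, Rbfox3).
Rbfox1 40-base exon: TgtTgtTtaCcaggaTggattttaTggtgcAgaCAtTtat
Rbfox2 40-base exon: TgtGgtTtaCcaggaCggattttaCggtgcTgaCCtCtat
Rbfox3 40-base exon: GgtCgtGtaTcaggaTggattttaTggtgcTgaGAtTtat
Of the 40 bases, 30 were shared by all 3 genes. The 43-base exons lie at chr16:7369801-7369843 (plus strand, Rbfox1) and chr15:77091812-77091854 (minus strand, Rbfox2).
Rbfox1 43-base exon: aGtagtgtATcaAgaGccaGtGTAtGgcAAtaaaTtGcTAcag
Rbfox2 43-base exon: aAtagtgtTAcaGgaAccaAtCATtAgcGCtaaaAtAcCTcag
Of these 43 bases, 27 were shared, a smaller part than in the 40-base exon.

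The tables gave most transcripts the brain exon. Inclusion is the TPM of transcripts that hold the exact exon, as a percent of that TPM plus the TPM of transcripts that join across it. For the 40-base exon it was 80.4% in pup 3 and 83.6% in pup 1 in Rbfox1, and 83.2% in pup 3 and 79.6% in pup 1 in Rbfox2. For the 43-base exon it was 19.6% in pup 3 and 16.4% in pup 1 in Rbfox1, where the exons exclude each other in every counted transcript, and 8.12% in pup 3 and 10.7% in pup 1 in Rbfox2. Rbfox2 transcripts that skip the 40-base exon held 11.65 TPM in pup 3 and 17.55 TPM in pup 1. Those with the 43-base exon held only 5.63 TPM in pup 3 and 9.18 TPM in pup 1, so some Rbfox2 transcripts hold neither. The Rbfox1 share of the muscle exon rests almost wholly on 1 protein-coding entry of 558 bases, at 21.99 TPM in pup 3 against 19.2 TPM in pup 1. Among entries of 1000 bases or more that share was 0.284% in pup 3 and 0.201% in pup 1. No entry of Rbfox3 that skips its 40-base exon is listed in the annotation. A further exon of Rbfox1, 54 bases at chr16:7306408-7306461, had 68.2% inclusion in both pups.

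The Nova proteins bind YCAY clusters and are named for an antigen of paraneoplastic disease of the nervous system. They were among the lowest of the list. Nova1 had 11.1 TPM in pup 3 against 17.2 TPM in pup 1, and Nova2, the form prominent in cortex, had 5.75 TPM in pup 3 and 9.39 TPM in pup 1. Nova2 was below Nova1 in both pups, by 0.90 ± 0.05 on the log2 scale (mean −0.90, n = 2), and their ranges did not overlap. The leading transcripts are long, 7154 bases for Nova1 and 8372 bases for Nova2. Their levels rested on 1912 estimated counts in pup 3 and 2855 in pup 1 for Nova1, and on 1399 in pup 3 and 2027 in pup 1 for Nova2. Nova2 has a second listed transcript of the same length that received the same TPM, so the reads did not separate them.

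The polypyrimidine tract-binding proteins repress exons. Ptbp1 stood at 44.3 TPM in pup 3 against 44.4 TPM in pup 1, and Ptbp2 at 146 TPM in pup 3 against 153 TPM in pup 1, so the neuronal paralogue was the higher in both. The log2 ratio of Ptbp2 to Ptbp1 was 1.75 ± 0.05 (n = 2), and 1.36 over entries of 1000 bases or more. Ptbp3 was low, 8.22 TPM in pup 3 and 9.00 TPM in pup 1. Ptbp1 shares 251 exonic bases with Plppr3, a gene on the other strand at 246 TPM in pup 3 against 271 TPM in pup 1. Whether counting used the strand is not given in the sources used here, so reads in that stretch may be split between the genes. In all, 5 regulators share exonic bases with a detected gene on the other strand: Ptbp1, Fxr1, Elavl1 (204 bases with Ccl25), Celf3 (74 bases with Riiad1) and Mbnl2 (86 bases with Gm26679). These partner genes were named after the overlaps were seen.

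Each Ptbp gene has a 34-base exon whose loss shifts the reading frame. In Ptbp2 this exon is a textbook target of PTBP1, which represses it in non-neural cells and so sends the message to nonsense-mediated decay, the destruction of messages with an early stop. The copies are shown to set the exon of the repressor beside that of its target. They lie at chr10:79862014-79862047 (plus strand, Ptbp1), chr3:119724612-119724645 (minus strand, Ptbp2) and chr4:59485339-59485372 (minus strand, Ptbp3), and capitals mark bases that are not the same in all 3.
Ptbp1 34-base exon: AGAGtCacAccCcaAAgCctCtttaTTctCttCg
Ptbp2 34-base exon: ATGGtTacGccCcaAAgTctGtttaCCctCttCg
Ptbp3 34-base exon: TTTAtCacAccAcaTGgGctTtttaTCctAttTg
Ptbp1 and Ptbp2 shared 26 of the 34 bases, and 19 were shared by all 3 genes.

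Inclusion of the 34-base exon was 96.8% in pup 3 and 97.6% in pup 1 for Ptbp1, and 80.3% in pup 3 and 80.6% in pup 1 for Ptbp2. The skipping transcripts of Ptbp1 are both annotated as targets of nonsense-mediated decay. For Ptbp2 the skipped form rests almost wholly on an entry of 576 bases annotated as a decay target, at 24.6 TPM in pup 3 against 27.3 TPM in pup 1. Among entries of 1000 bases or more inclusion in Ptbp2 was 100% in pup 3 and 99.7% in pup 1. The lower inclusion in Ptbp2 therefore holds only where that short entry is counted. No Ptbp3 transcript that skips the exon is listed. A 78-base exon of Ptbp1 at chr10:79860117-79860194, whose skipping yields a shorter protein known to be a weaker repressor, was included at 29.95% in pup 3 and 36.5% in pup 1.

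SRRM4, also called nSR100, switches on neuronal microexons, and SRRM3 shares that activity. Srrm4 had 8.56 TPM in pup 3 and 13.5 TPM in pup 1, nearly all on its transcript of 7472 bases. Srrm3 had 31.3 TPM in pup 3 and 36.9 TPM in pup 1, of which a coding entry of 526 bases held 25.97 TPM in pup 3 and 28.1 TPM in pup 1. By TPM Srrm4 was below Srrm3 (log2 ratio −1.65 ± 0.30, n = 2). By estimated counts it was above (1844 against 790 in pup 3, 2542 against 927 in pup 1). Counts are not corrected for length, and the effective length in pup 1 was 7196 bases for Srrm4 against 963 for Srrm3. By the TPM of entries of 1000 bases or more Srrm4 was also above (log2 ratio 0.77). Which of these genes stands higher is thus set by the handling of short entries.

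The muscleblind proteins are zinc-finger regulators that push exons towards the adult pattern. Mbnl1 had 27.9 TPM in pup 3 against 35.3 TPM in pup 1, and Mbnl2 had 13.6 TPM in pup 3 and 19.8 TPM in pup 1. Mbnl3, the X-linked member, was the only regulator under the detection minimum, at 0.50 TPM in pup 3 against 0.42 TPM in pup 1, from 16 estimated counts in pup 3 and 23 in pup 1. Mbnl2 was 0.93 ± 0.14 below Mbnl1 on the log2 scale (mean −0.93, n = 2), and 0.24 below over entries of 1000 bases or more (−0.24).

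Mbnl1 and Mbnl2 hold a 54-base exon known to send the protein to the nucleus and a 36-base exon in their 3′ part. The paralogous copies are shown so that their sequences can be set beside their inclusion values. They lie at chr3:60614683-60614736 and chr3:60621423-60621458 in Mbnl1 and at chr14:120395712-120395765 and chr14:120403336-120403371 in Mbnl2, all on the plus strand.
Mbnl1 54-base exon: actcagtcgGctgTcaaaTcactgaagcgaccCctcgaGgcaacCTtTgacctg
Mbnl2 54-base exon: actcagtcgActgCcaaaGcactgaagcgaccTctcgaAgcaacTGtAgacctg
Mbnl1 36-base exon: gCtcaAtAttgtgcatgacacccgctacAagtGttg
Mbnl2 36-base exon: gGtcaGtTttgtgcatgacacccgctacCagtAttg
The copies share 46 of 54 and 31 of 36 bases. The 54-base exon was included at 44.6% in pup 3 and 53.9% in pup 1 in Mbnl1, and at 42.1% in pup 3 and 40.1% in pup 1 in Mbnl2. The 36-base exon was included at 32.4% in pup 3 and 47.4% in pup 1 in Mbnl1, and at 23.3% in pup 3 and 20.3% in pup 1 in Mbnl2. Inclusion of both exons in Mbnl1 was above that in Mbnl2 in each pup, without overlap between the pups. Over entries of 1000 bases or more the order of the 54-base exon turned, with 35.4% in pup 3 and 40.4% in pup 1 in Mbnl1, and 45.9% in pup 3 and 44.4% in pup 1 in Mbnl2.

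**Figure D2:**
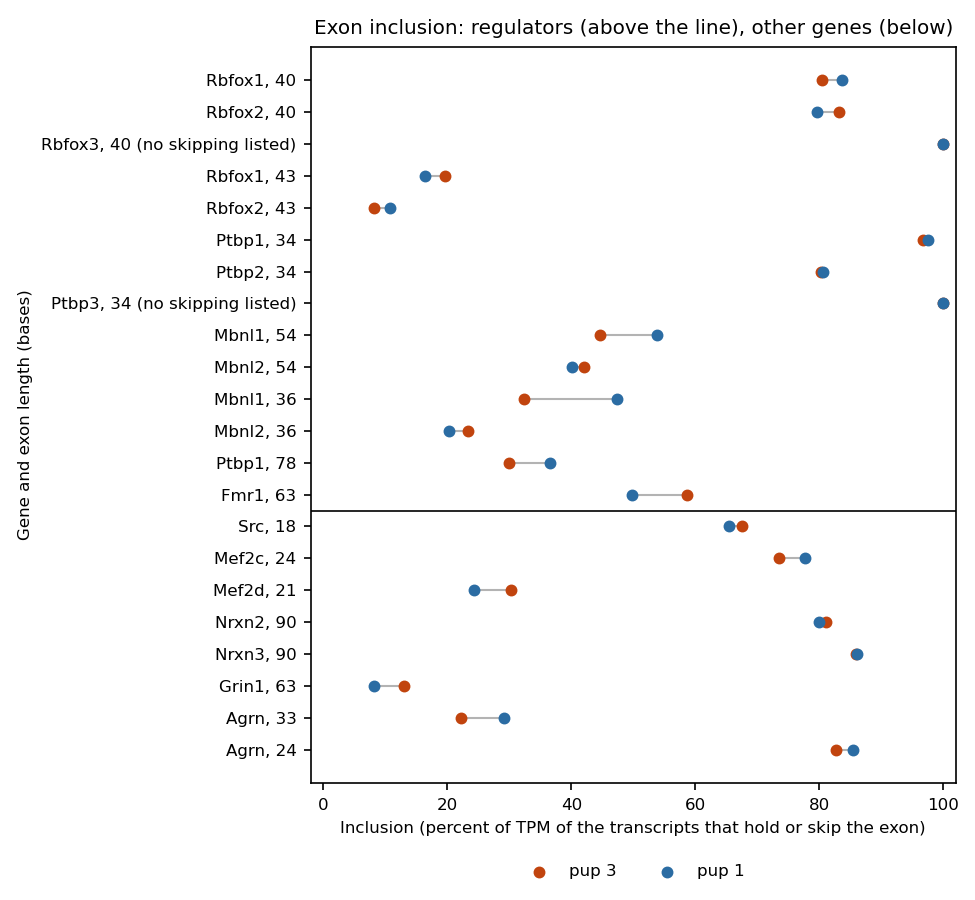
Inclusion of alternative exons, in percent of the TPM of transcripts that hold or skip the exon, for regulators (above the line) and for textbook target genes (below), with a point for pup 3 and a point for pup 1. The Rbfox 40-base exons lie near 80%, the Rbfox 43-base exons under 20%, and exons for which no skipping transcript is listed are marked and sit at 100% by construction.

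The CELF proteins bind GU-rich sequence, often with effects on exons opposite to those of muscleblind, and also act on message decay. Celf4, a neuronal form, was the highest regulator, with 257 TPM in pup 3 and 474 TPM in pup 1. Celf3 had 196 TPM in pup 3 and 243 TPM in pup 1, Celf2 had 105 TPM in pup 3 against 153 TPM in pup 1, and Celf5 had 47.6 TPM in pup 3 and 58.9 TPM in pup 1. The widely expressed Celf1 had 45.2 TPM in pup 3 and 59.6 TPM in pup 1. Celf6 was lowest, with 15.4 TPM in pup 3 and 34.4 TPM in pup 1. Celf4 exceeded Celf1 by 2.74 ± 0.34 on the log2 scale (n = 2). Only 11.9% of the Celf3 level in pup 3 and 11.8% in pup 1 lay on entries of 1000 bases or more, which put it at 26.03 ± 3.73 TPM (n = 2). With annotation M4 the mean level was 41.95 TPM for Celf3 and 164 TPM for Celf4.

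STAR family proteins of the Khdrbs genes bind UAAA repeats, and KHDRBS2 and KHDRBS3 are brain forms known for the neurexin exons described below. Khdrbs1, expressed in most tissues, had 72.0 TPM in pup 3 and 87.2 TPM in pup 1. Khdrbs3 had 40.6 TPM in pup 3 against 40.4 TPM in pup 1, and Khdrbs2 had 21.6 TPM in pup 3 and 23.8 TPM in pup 1. These 3 levels kept the same order in both pups. With annotation M4, however, the mean level was 23.7 TPM for Khdrbs3 and 23.8 TPM for Khdrbs2, so the step between them depends on the annotation. Khdrbs1 was nearly all on 1 coding transcript of 3738 bases, whereas decay-annotated transcripts held 17.0% of Khdrbs3 in pup 3 and 16.7% in pup 1.

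The Elavl proteins bind AU-rich and U-rich sequence and steady messages, with ELAVL1 (HuR) in all tissues and the other members in neurons. Elavl4 had 128 TPM in pup 3 and 165 TPM in pup 1, Elavl2 had 55.0 TPM in pup 3 against 70.1 TPM in pup 1, and Elavl3 had 40.8 TPM in pup 3 and 61.8 TPM in pup 1. Elavl1 had 37.1 TPM in pup 3 and 50.2 TPM in pup 1. Elavl2, Elavl3 and Elavl4 were above Elavl1 within each pup, but the ranges of Elavl3 and Elavl1 overlapped (log2 ratio 0.22 ± 0.12, n = 2). Over entries of 1000 bases or more the ratio of Elavl3 to Elavl1 changed sign between pups, at −0.12 in pup 3 and 0.24 in pup 1. That of Elavl2 to Elavl1 was 0.56 in pup 3 and 0.49 in pup 1 on these entries. The step of 1.75 ± 0.04 from Elavl1 to Elavl4 on the log2 scale rested on the TPM given to short entries. Above all this was a processed transcript of 869 bases at 47.8 TPM in pup 3 against 65.3 TPM in pup 1. Over the TPM of entries of 1000 bases or more that log2 ratio was −0.06. Reads of the short entries were left out there and not moved to longer ones, so the level of Elavl4 in their absence is not known.

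Among regulators of translation, Musashi proteins are known from neural progenitors. Msi1 had 38.3 TPM in pup 3 against 41.3 TPM in pup 1, and Msi2 had 7.82 TPM in pup 3 and 15.2 TPM in pup 1. Msi1 was thus above Msi2 in both pups, by 1.85 ± 0.60 on the log2 scale (n = 2), the widest spread among the pairs computed. Fmr1 encodes FMRP, which holds back translation at synapses and is lost in fragile X syndrome. Fmr1 had 20.97 TPM in pup 3 against 30.95 TPM in pup 1, and its paralogues were close to it: Fxr1 had 19.5 TPM in pup 3 against 22.6 TPM in pup 1, and Fxr2 had 18.4 TPM in pup 3 and 20.8 TPM in pup 1. Fxr1 shares 178 exonic bases with Dnajc19 on the other strand, which was at 185 TPM in pup 3 against 147 TPM in pup 1. The 63-base exon of Fmr1 (chrX:68705861-68705923), a known alternative exon of the part that binds RNA, was included at 58.7% in pup 3 and 49.8% in pup 1. Syncrip, an hnRNP of RNA transport granules also called hnRNP Q, had 68.7 TPM in pup 3 and 68.2 TPM in pup 1.

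At the level of transcripts, the annotation lists 324 entries for the 32 genes, of which 130 reached 1 TPM in both pups. The highest transcript was the same in both pups for 29 of the 31 detected regulators, the exceptions being Ptbp1 and Celf4. In 29 it was a protein-coding one, and in Elavl4 and Celf3 a processed transcript. A median of 89.4% of a regulator's TPM lay on protein-coding transcripts (88.5% in pup 3, 89.7% in pup 1), and in 13 regulators the share was above 90% in both pups. It was under 60% in Elavl4 (41.04% in pup 3, 46.6% in pup 1) and in Celf3 (46.6% in pup 3, 44.3% in pup 1). Decay-annotated transcripts exceeded 10% in both pups in 4 regulators: Syncrip (25.1% in pup 3, 16.3% in pup 1), Ptbp2 (16.8% in pup 3, 18.03% in pup 1), Khdrbs3 and Ptbp3 (14.0% in pup 3, 12.1% in pup 1). Retained-intron transcripts took a smaller share in pup 3 in 20 of the 23 regulators with such an entry (median 2.71% in pup 3, 4.08% in pup 1). The share was likewise smaller in pup 3 in 68.0% of 7860 genes with such an entry (median 3.53% in pup 3, 5.39% in pup 1), so the direction was that of the libraries as a whole.

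**Figure D3:**
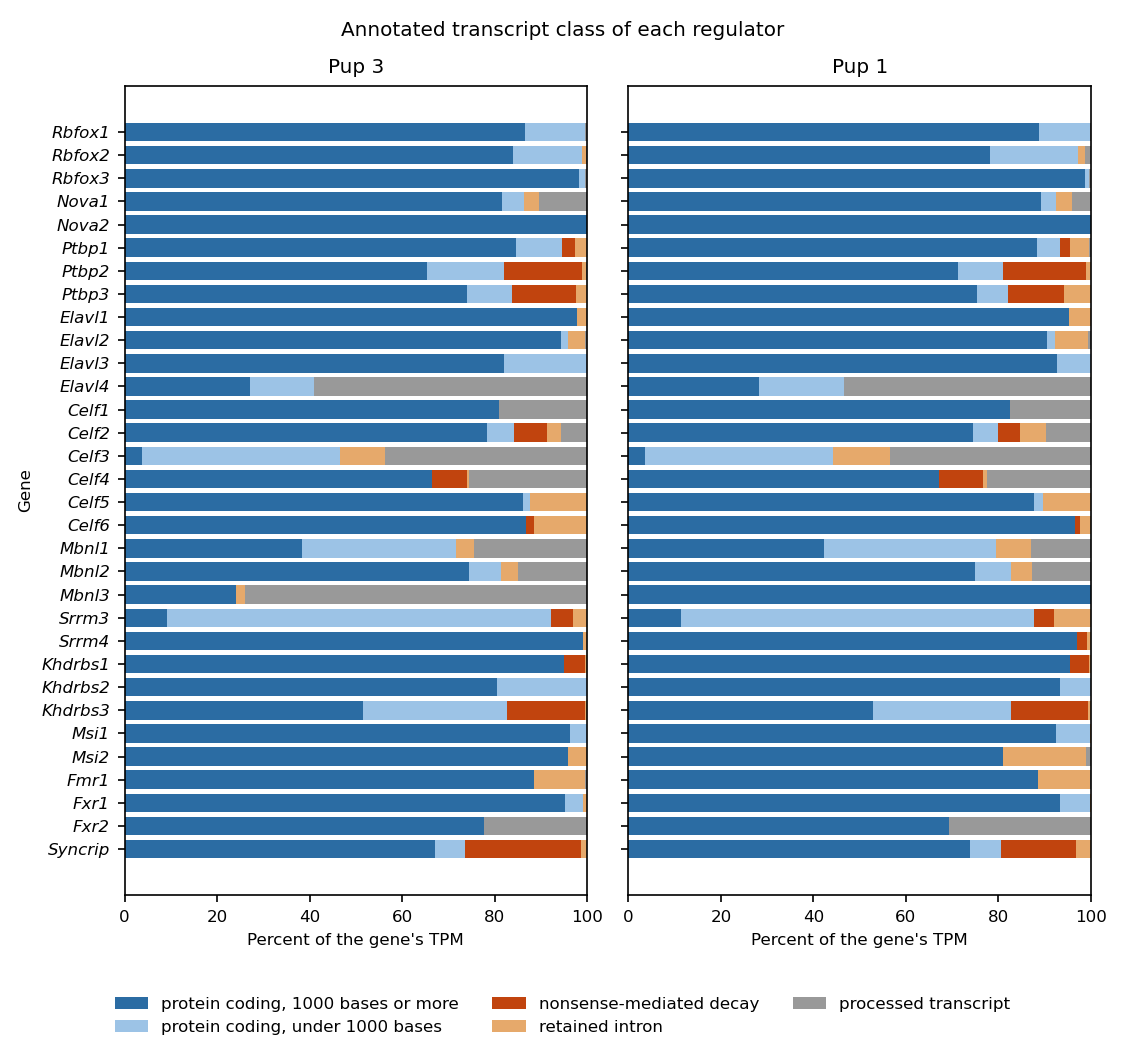
Percent of each regulator's TPM on protein-coding transcripts (dark blue, 1000 bases or more, and light blue, shorter), transcripts annotated for nonsense-mediated decay, retained introns and processed transcripts, for pup 3 (left) and pup 1 (right). Elavl4 and Celf3 carry large shares of processed transcripts, Srrm3 is mostly a short coding entry, and the bars of Mbnl3 rest on 16 counts in pup 3 and 23 in pup 1.

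In 18 regulators, 33 internal exons had an inclusion between 10 and 90% in both pups. Of these, 29 were in coding sequence and 15 had a length that keeps the reading frame. Overlapping versions of an exon in Celf4 and in Mbnl1 were counted apart. So were exons read from the same transcripts: those of 117 and 147 bases in Khdrbs3, and of 40 and 43 bases in Rbfox1. The 33 exons are therefore not independent. For 28 of the 33 the pups lay within 10 percentage points. Frame-keeping examples are the 144-base exon of Celf2, included at 75.4% in pup 3 and 73.3% in pup 1, and the 144-base exon of Celf4, at 45.0% in pup 3 and 45.4% in pup 1. An overlapping 84-base version of that Celf4 exon was at 65.4% in pup 3 and 66.4% in pup 1. Its transcripts held more TPM (102.25 against 44.29 in pup 3, 193.07 against 81.35 in pup 1), and neither value counts transcripts with the other version. An 85-base exon of Celf4 is found only in a decay-annotated entry and had 10.3% in pup 3 and 12.6% in pup 1. The 5 exons that differed by more were all of Mbnl1 or Ptbp3: in Mbnl1 the exons of 36, 154, 49 and 63 bases, and in Ptbp3 a 34-base exon at chr4:59546149-59546182, which is another exon than the one printed above (26.3% in pup 3, 42.6% in pup 1). The Mbnl1 exons of 154, 49 and 63 bases are not separate cases. The TPM that skips the exons of 154 and 49 bases and holds that of 63 bases is that of 1 processed transcript. It had 5.07 TPM in pup 3 (deposited interval 3.15 to 6.76) and 2.17 TPM in pup 1 (0.29 to 4.30), and these intervals overlap. Transcripts that hold the Ptbp3 exon had only 2.11 TPM in pup 3 and 3.61 TPM in pup 1.

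Exons that the regulators are known to control gave a mixed picture. Of 8 such exons in 7 genes, 5 had an inclusion of 50% or more in both pups and 3 were under 50% in both. The 18-base microexon of Src, the N1 exon of neuronal Src kinase and a classic target of PTBP1 and SRRM4, was included at 67.6% in pup 3 and 65.4% in pup 1. The 24-base exon of the muscle and neuron factor Mef2c was at 73.5% in pup 3 and 77.7% in pup 1, while the 21-base exon of its paralogue Mef2d was at 30.2% in pup 3 and 24.2% in pup 1.

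The neurexin exon of 90 bases at splice site 4, which changes which partners neurexins bind across the synapse, was mostly included in the neurexin genes reported here. It was at 81.1% in pup 3 and 79.96% in pup 1 in Nrxn2 and at 85.9% in pup 3 and 86.1% in pup 1 in Nrxn3. KHDRBS2 and KHDRBS3 are known to repress this exon. The 63-base exon of the NMDA receptor subunit Grin1 was low, at 13.1% in pup 3 and 8.14% in pup 1. Agrn, whose neural form clusters receptors at the nerve-muscle synapse, had its 33-base exon at 22.3% in pup 3 and 29.1% in pup 1 and its 24-base exon at 82.7% in pup 3 and 85.5% in pup 1. The 24-base exon is held by 1 coding and 1 retained-intron entry (28.85 TPM in pup 3, 39.43 TPM in pup 1). The 33-base exon is held by 1 coding entry (7.77 TPM in pup 3, 13.41 TPM in pup 1), and 1 retained-intron entry is among those that skip it. Both values thus depend on counting retained-intron TPM, and a share among coding entries alone was not computed. Exons of 53 bases in Rbfox1 and in Dlg4 were sought as well, but no exon of that length with a skipping transcript is listed for either gene.

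Nearly all regulators were lower in TPM in pup 3 than in pup 1, as were most genes. The median of log2 (TPM + 1) in pup 3 over pup 1 was −0.33 over the 31 regulators with a mean of 1 TPM or more and −0.24 over the 15463 genes that passed the same minimum. In pup 3, 29 regulators were lower and 2, Khdrbs3 and Syncrip, were higher, and 79.6% of all genes were lower. The shift of −0.24 depended on the scale: in CPM (estimated counts scaled to library size) without further scaling the median of all genes was −0.10. With TMM scaling it was 0.04 and with DESeq2 size factors 0.03. These scalings are made to even out the typical gene between libraries, so their small medians follow from the method. Differences are given relative to the median of all genes from here on. Relative to it, 19 regulators were below and 12 above.

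More than 1.5-fold lower in pup 3 were 3 of the 31 regulators (9.68%), Celf6, Celf4 and Msi2, against 4.9% of all genes. None was more than 1.5-fold higher, against 3.29% of all genes. With 3 genes past the fold, nothing is read from the share among regulators beyond this background. Celf6 differed by −0.88 on the log2 scale, with 926 estimated counts in pup 3 and 1966 in pup 1. Celf4 differed by −0.64, with 13423 counts in pup 3 and 22104 in pup 1, and all 8 of its transcripts at 1 TPM or more in both pups were lower in pup 3. Msi2 differed by −0.64, with 1384 counts in pup 3 and 2119 in pup 1.

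Msi2 did not keep its place under other scalings. It was at −0.49 in CPM with either scaling and at −0.39 relative to genes of similar transcript length, whereas Celf4 and Celf6 remained past the fold in these. Differences followed length in all genes: the median log2 ratio, here before the shift is removed, was −0.04 for genes with a leading transcript under 1000 bases and −0.49 at 6000 bases or more. Spearman's rho of the log2 ratio with leading transcript length was −0.43 across the 31 regulators and −0.40 across all 15463 genes, as a description, since the genes share the same libraries. The long-transcript regulators Nova1, Nova2 and Srrm4 were at −0.35, −0.38 and −0.37, and relative to genes of similar length at −0.09, −0.13 and −0.11. Of the marker lists, neuron genes had a median difference of −0.33 relative to all genes, although the most abundant of them, Tubb3 and Stmn2, were at 0.13 and 0.02, and astrocyte genes had a median of −0.35. The median was 0.28 for microglia, 0.28 for vessels, 0.71 for the haemoglobin genes and 0.17 for the forebrain genes. Members of a list differed. Of the 8 forebrain genes 2 were more than 1.5-fold higher, with Neurod6 at 0.92, and 1 was more than 1.5-fold lower, Emx2 at −0.87. Against their list medians, the microglia gene Cx3cr1 was at −0.71 and the vessel gene Flt1 at −0.38. Stmn2, Emx2, Cx3cr1 and Flt1 were named after their values were seen. The part of transcript length or of cell makeup in the regulators' differences was not tested.

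At the other end, Syncrip, Khdrbs3, Ptbp1, Rbfox1 and Ptbp2 were 0.17 to 0.25 above the median of all genes. Relative to genes of similar transcript length they were at 0.28 (Syncrip), 0.14 (Khdrbs3), 0.26 (Ptbp1), 0.07 (Rbfox1) and 0.19 (Ptbp2), and Ptbp3 was then the highest regulator at 0.38. In the bin of genes that holds their mean levels the median was 0.17, so Ptbp2 and Rbfox1 lay at the level of other genes of their abundance.

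**Figure D4:**
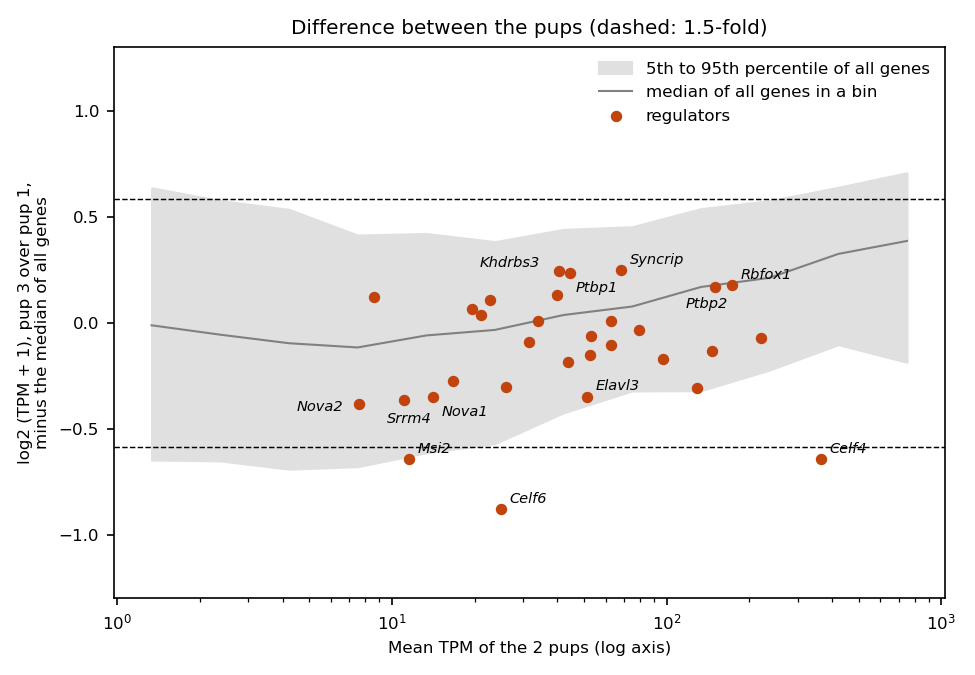
Difference between the pups, as log2 (TPM + 1) in pup 3 over pup 1 minus the median of all genes, against mean TPM on a log axis, for the 31 detected regulators (points) over the 5th to 95th percentile of all genes in bins of level (grey). Celf6, Celf4 and Msi2 lie below the lower dashed line of 1.5-fold, and no regulator lies above the upper one.

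General splicing factors were more abundant. SR proteins, which bind exonic enhancers, were detected in 13 of 13 cases at a median of 111 ± 3.08 TPM (n = 2), and hnRNPs, abundant packagers of pre-mRNA, in 20 of 20 at 149 ± 15.1 TPM. The highest SR genes were Srsf5, Srsf2, Srsf3 and Srsf7, and the lowest was Srsf12 with 17.5 TPM in pup 3 and 35.8 TPM in pup 1. The highest hnRNPs were Hnrnpk (861 TPM in pup 3, 963 TPM in pup 1), Hnrnpa2b1, Hnrnpa1 and Hnrnpab, and the lowest was Hnrnpul2. Other RNA-binding proteins of the brain were detected in 26 of 28 cases at a median of 26.6 ± 7.27 TPM, led by Matr3, Ewsr1, Pcbp1 and Pcbp4, with the stem-cell factor Lin28a lowest at 0.02 TPM in pup 3 against 0.01 TPM in pup 1. Splicing regulators of epithelia, muscle and gut were detected in 3 of 7 cases, Rbm38, Rbm24 and Rbm47, at a median over the list of 1.00 ± 0.19 TPM, and A1cf was listed at 0. The fourth of that list, Rbm20, a regulator of titin splicing in heart, had 0.87 TPM in pup 3 and 1.14 TPM in pup 1.

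Between the pups, the median difference relative to all genes was 0.11 for SR proteins, 0.14 for hnRNPs and −0.09 for other RNA-binding proteins of the brain, against −0.09 for the 31 regulators. More than 1.5-fold lower in pup 3 were 1 SR gene, Srsf12, no hnRNP, and 4 other RNA-binding genes, Taf15, Rbms3, Cpeb1 and Cpeb3. The last 4 were named after their values were seen. No gene of these lists was more than 1.5-fold higher.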

How the data were processed

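Per the labels, polyA RNA-seq was made from the forebrain of pup 3 and pup 1. The authors deposited gene and transcript tables for mm10 with annotation releases M21 (used here) and M4 (an alternative). They hold deposited expected counts, the deposited TPM with posterior means and intervals, and each transcript's deposited percent of its gene's TPM. Which aligner and quantifier made them is not given in the sources used here, though the columns carry RSEM's names. Reads that fit several places are split: 25 regulators had whole counts (within 0.005) and 7 did not. For an effective length of 1000 bases, 1 read was worth 0.0340 TPM in pup 3 against 0.0383 TPM in pup 1.

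Symbols, transcript classes, exons and sequences came from GENCODE M21. Pair ratios are log2 of (TPM + 0.1) within a library, and pup differences log2 of (TPM + 1), which understates changes of low genes. Transcript and exon values are estimates from the authors' quantification of annotated entries, not junction reads. Scaling used edgeR 4.0.16 (TMM) and DESeq2 1.42.0 on expected counts rounded to whole numbers, in R 4.3.3, tested on simulated counts; Python 3.11.15 and pandas 2.3.3 did the rest. The members, gene lists, exons and tests were chosen with earlier results of these data known. Named genes are all 32 members, the 4 highest and the lowest of each splicing list, the highest marker of each list, and all genes of pairs and target exons; others are said to be named after their values were seen. Settings were varied for the annotation, the estimate, the pseudocount, the scaling, the filter and the pup left out, and, added after seeing the data, for short entries and transcript length. A few genes of the lists of exons and RNA-binding proteins are not reported here and were left out of their counts.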

Additional observations from a re-analysis of the deposited data

How the results depend on the processing

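The number of detected regulators, the count of shared leading transcripts and the counts of alternative and target exons stayed within 1.5 times or within the spread under every alternative run. The median level of the regulators was 38.3 TPM with annotation M4, 32.7 TPM over entries of 1000 bases or more, and 39.4 to 42.8 TPM with either pup left out. The median difference of the regulators between the pups, in CPM, was −0.19 without further scaling, −0.027 with TMM and −0.042 with DESeq2 size factors. Relative to the median of all genes it was −0.10, −0.07 and −0.07 in these settings. At 2-fold 0 of 31 regulators were past the threshold in place of 3, against 1.03% of all genes lower and 0.75% higher. Without a filter on low values 7 of 32 were past 1.5-fold, all lower in pup 3. The share of all genes was then 4.76% lower and 0.56% higher, and their median was taken over more genes, low ones included. The median coding share was 87.7% with posterior mean TPM and 88.5% to 89.7% with either pup left out. Of the pair ratios, Rbfox3 over Rbfox2 reversed to 0.17 with M4, and Srrm4 over Srrm3 reversed to 1.34 with estimated counts and to 0.77 over entries of 1000 bases or more. With M4 the log2 ratio was 1.60 for Celf4 over Celf1, −0.34 for Nova2 over Nova1 and −1.72 for Mbnl2 over Mbnl1, and by estimated counts that of Celf4 over Celf1 was 1.15. Estimated counts are not corrected for transcript length, so their ratios between genes are not ratios of level. Of the exon inclusions, 12 moved by more than the SD and 27 did not over entries of 1000 bases or more, and 9 moved and 33 did not with posterior mean TPM. Among single levels, 14 of 32 moved by more than the SD over entries of 1000 bases or more and 11 with M4. No paired analysis was possible because the libraries form 1 group. Depth limits Mbnl3 alone among the regulators, at 16 counts in pup 3 and 23 in pup 1. With 2 pups, spread between animals is poorly known.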
